A study of Mus musculus with 2 samples.

Results

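The Mir30 family was followed in C2C12 myotubes, cells of a mouse myoblast line that came from injured thigh muscle of C3H mice, after 72 h of differentiation in culture. The members were the 7 annotated genes Mir30a, Mir30b, Mir30c-1, Mir30c-2, Mir30d, Mir30e and Mir30f, taken by name out of 2202 miRNA genes. The series held 1 group of 2 small RNA libraries, biological replicates 1 and 2 from separate biosamples of this cell line, with no treatment and no undifferentiated control. The labels state a size range below 30 without a unit. Levels were therefore compared between genes and between the libraries, and no value below compares conditions.

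A mature miRNA guides an Argonaute protein to messenger RNAs, mainly through its seed, the bases from position 2 to position 8. The Mir30 genes are widely expressed in mammals, and genes with the same seed are expected to share many targets. Among targets reported elsewhere are Snai1, a transcriptional repressor, Becn1, an autophagy protein, and Tnrc6a, an Argonaute partner, and miR-30 has been reported to favour differentiation of mouse myoblasts.

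The sequences show how alike some of the members are, which bears on whether their reads can be told apart. The RefSeq table (build GRCm38.p6) held mature sequences for 5 of the 7 genes, and the others were Mir30b and Mir30d. The 5p arms of the matched genes, with Mir30f and the only other gene of the table with the family's seed, Mir384, are given 5′ to 3′ with the seed in capitals.
miR-30a-5p: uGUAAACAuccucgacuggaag
miR-30e-5p: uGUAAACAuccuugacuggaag
miR-30c-5p: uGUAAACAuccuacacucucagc
miR-30f: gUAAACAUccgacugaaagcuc
miR-384-5p: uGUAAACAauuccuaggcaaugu

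The seed GUAAACA was shared by 5 of 1058 genes in the table, 4 of them Mir30 members. miR-30f holds the same letters from position 1 instead of position 2, so its seed is UAAACAU, which no other gene in the table had. The arms miR-30a-5p and miR-30e-5p matched at 21 of 22 positions and differed by C13U, counted from 1 at the 5′ end of miR-30a-5p. miR-30c-5p matched miR-30a-5p at the first 12 bases and at 17 of the 22 compared. miR-384-5p matched it at the first 8 bases and at 12 of 22.

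Mir30c-1 and Mir30c-2 encode the same 5p arm. Their hairpins are shown with the longest shared run of 28 bases in capitals, which covers that arm and the start of the loop.
Mir30c-1: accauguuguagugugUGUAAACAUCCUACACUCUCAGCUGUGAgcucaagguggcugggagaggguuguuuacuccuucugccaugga
Mir30c-2: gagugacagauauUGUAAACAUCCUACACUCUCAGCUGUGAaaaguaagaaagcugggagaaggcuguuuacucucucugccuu

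The 3p arms of this pair were alike at 19 of 22 bases and differed by G9A, U12C and C22U, read from miR-30c-1-3p to miR-30c-2-3p. Mir30a and Mir30e shared at most 18 bases, fewer than a mature arm, and no hairpin outside the family shared more than 11 bases with any of these 4 members that have a hairpin in the table. Multimapping reads form a summary line of their own in the deposited tables and are in no gene count. They were 22.0% of the sequenced reads in replicate 1, against 17.9% in replicate 2, and how many of them were miR-30c was not analysed here.

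The hairpin of Mir30e is shown with its 5p and 3p arms in capitals, because Mir30f is annotated on the opposite strand of the same bases.
Mir30e: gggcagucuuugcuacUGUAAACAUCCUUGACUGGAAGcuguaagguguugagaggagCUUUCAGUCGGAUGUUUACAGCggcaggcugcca

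The sequence of miR-30f occurs in the reverse complement of this hairpin. Of its 22 bases, 19 lie opposite miR-30e-3p.

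On the mm10 assembly, annotation release M21, the members form 3 clusters. Mir30a (ENSMUSG00000065405.3) lies on chromosome 1 from 23272269 to 23272339, on the plus strand, in no other annotated gene. Mir30c-2 (ENSMUSG00000065567.1) follows 19361 bases further on the same strand, from 23291701 to 23291784, within an exon of the long non-coding RNA gene Gm27028. Mir30c-1 (ENSMUSG00000065490.1, 120769534 to 120769622) and Mir30e (ENSMUSG00000065409.1, 120772606 to 120772697) lie 2983 bases apart on the minus strand of chromosome 4. Both sit in introns of Nfyc, which encodes a subunit of the CCAAT-binding factor NF-Y and runs on the same strand. Mir30f (ENSMUSG00000105585.1) has the coordinates of Mir30e on the plus strand. Mir30b (ENSMUSG00000065476.2, 68337415 to 68337510) and Mir30d (ENSMUSG00000065437.1, 68341208 to 68341289) lie 3697 bases apart on the minus strand of chromosome 15. Mir30d falls within an exon of the long non-coding RNA gene Gm20732, and 16 of the 96 bases of Mir30b overlap an exon of the transcript gene Gm26621.

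Replicate 1 held 7581366 reads assigned to the own strand of a miRNA gene and replicate 2 held 9865298, which were 49.4% and 53.5% of all their reads. The muscle miRNAs Mir206, Mir133b, Mir499 and Mir208b were all detected and together made up 35.5% (replicate 1) and 42.8% (replicate 2) of the miRNA reads, and Mir206 alone made up 96.7% of their mean CPM. Of other muscle miRNAs, Mir1a-1 was detected at a mean of 2.94 CPM, while Mir1a-2, Mir133a-1 and Mir133a-2, at means of 3.02, 2.01 and 1.03 CPM, were below 2 CPM in at least 1 library. Multimapping reads are in none of these counts, and their part in the low values was not tested. Listed markers of blood, endothelium, neurons and epithelium each took between 0.00429% and 0.0217% in either library, and 4 markers of liver and pancreas together had 9 and 16 reads. No read fell on 5 of the 7 neuronal, 2 of the 6 epithelial and 2 of the 4 liver and pancreas markers. Mir132 made up 99.955% of the mean CPM of the neuronal markers. The marker counts leave out multimapping reads too, so a marker gene without a read does not show that its mature miRNA was absent. Levels are given as CPM, the reads of a gene per 1000000 own-strand reads of all miRNA genes, with no scaling by length, since the printed mature arms are 22 or 23 bases long. Detection means at least 2 CPM in each library. Intervals cover counting error only, and bulk libraries cannot tell fewer cells expressing a gene from less RNA per cell.

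The Mir30 genes together were a small part of the miRNA reads. They took 1.49% in replicate 1 (113249 reads, 95% exact Clopper-Pearson interval 1.485% to 1.502%) and 1.44% in replicate 2 (141818 reads, interval 1.430% to 1.445%), or 1.47% ± 0.0398 (SD, n = 2). Detected were 6 of the 7 members, where 12.4% of all annotated miRNA genes were detected, and 4 members had a mean above 1000 CPM, as 65 genes of the series did.

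Mir30a, whose 5p arm is reported to act on Becn1, was the leading member. It had 6120 CPM in replicate 1 and 6588 CPM in replicate 2, or 6354 ± 331 CPM (SD, n = 2), and ranked 21st of all miRNA genes by mean. Its libraries differed least among the members, with a coefficient of variation of 5.21%. It made up 41.0% of the family's reads in replicate 1 and 45.8% in replicate 2. Its lower value stood above both values of every other member.

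Mir30d and Mir30e followed, and their order was not resolved. Mir30d, of the chromosome 15 cluster, had 4375 CPM in replicate 1 and 3107 CPM in replicate 2, or 3741 ± 897 CPM (SD, n = 2). Mir30e, of the Nfyc intron, had 2408 CPM in replicate 1 and 3262 CPM in replicate 2, or 2835 ± 604 CPM (SD, n = 2). Mir30d was thus above Mir30e in replicate 1 and below it in replicate 2, and the ranges of the genes overlap. With Mir30a, they made up 86.4% of the family's reads in replicate 1 and 90.1% in replicate 2.

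Mir30b, the neighbour of Mir30d, came next at 1886 CPM in replicate 1 and 1249 CPM in replicate 2, or 1568 ± 450.0 CPM (SD, n = 2). Both of its values were below both values of Mir30a, Mir30d and Mir30e. Its libraries differed most among the members, with a coefficient of variation of 28.7%. It made up 12.6% of the family's reads in replicate 1 and 8.69% in replicate 2.

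The Mir30c genes were far below the others. Mir30c-1 had 593 reads in replicate 1 and 849 in replicate 2, or 78.2 and 86.1 CPM. Mir30c-2 had 535 reads in replicate 1 and 812 in replicate 2, or 70.6 and 82.3 CPM. The means were 82.1 ± 5.54 CPM for Mir30c-1 and 76.4 ± 8.30 CPM for Mir30c-2 (SD, n = 2), and the ranges of the pair overlap. Mir30c-1 took 52.6% of the reads of the pair in replicate 1 (exact interval 49.6% to 55.5%) and 51.1% in replicate 2 (48.7% to 53.5%), so an even split lies within the counting error of each library. Mir30b, the lowest of the other detected members, had a mean 19.1-fold above that of Mir30c-1. Multimapping reads were 2995-fold as many as the reads of both genes in replicate 1 and 1984-fold as many in replicate 2, and their part in the low counts of this pair was not tested.

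Mir30f had no read on its own strand in either library. A count of 0 allows up to 3 reads, a limit of 0.396 CPM (replicate 1) and 0.304 CPM (replicate 2). The reads of Mir30e, 18255 in replicate 1 and 32181 in replicate 2, were at least 6085-fold and 10727-fold higher than that limit per library. The opposite-strand column gave exactly the same 18255 and 32181 reads at Mir30f, and no read at Mir30e or at any other member. In the count that ignores strand both genes were listed at 0, and the reads of Mir30e equalled 2.46% and 2.17% of the reads set aside there as ambiguous. Mir384, outside the family but with its seed, had 2 reads in replicate 1 and 0 in replicate 2.

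**Figure D1:**
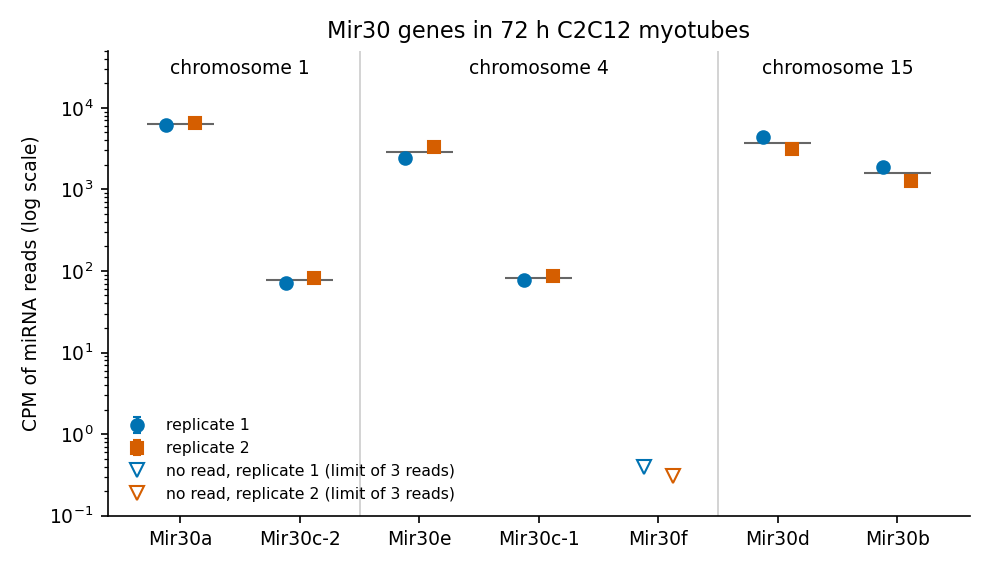
CPM of the 7 Mir30 genes on a log axis, by genomic cluster, with circles for replicate 1, squares for replicate 2, bars for the 95% exact counting intervals (mostly smaller than the symbols) and lines for the mean. Mir30a, Mir30d, Mir30e and Mir30b lie above 1000 CPM, both Mir30c genes lie near 80 CPM, and Mir30f, with no read, is drawn as open triangles at the limit of 3 reads (0.396 and 0.304 CPM).

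The order of levels was the same in both libraries for most pairs of members. Among the 15 pairs of the 6 detected genes, 14 ratios had the same sign in both libraries and in 13 pairs the ranges did not overlap. The exceptions were Mir30d with Mir30e, and Mir30c-1 with Mir30c-2. A two-sided exact permutation test on 2 paired libraries cannot give a p below 0.5, so none was made.

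Between the libraries, both chromosome 15 genes had positive log2 ratios of replicate 1 over replicate 2. The ratios of all other detected members, on chromosomes 1 and 4, were negative. The reads of each gene were compared with an exact two-sided binomial test that used TMM effective library sizes and was adjusted by the Benjamini-Hochberg method over 415 genes, of which 55.7% differed. This test compares these libraries and takes account of counting error only. Of the 6 Mir30 genes tested, 5 differed, 2 higher in replicate 1 (30.4% of all genes tested) and 3 higher in replicate 2 (25.3% of all genes tested). With 6 members tested, nothing particular to the family is read from this count.

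Both chromosome 15 genes were higher in replicate 1. The log2 ratio of replicate 1 over replicate 2 was 0.56 for Mir30b and 0.46 for Mir30d, or 1.48-fold and 1.38-fold (adjusted p of the exact binomial test 1.96e-221 for Mir30b, and below the range of the software for Mir30d). Mir30e, Mir30a and Mir30c-2 were higher in replicate 2. Their log2 ratios of replicate 1 over replicate 2 were -0.47, -0.14 and -0.25 (adjusted p of the exact binomial test 4.85e-275, 1.76e-54 and 0.00373). Mir30c-1 had a log2 ratio of -0.17, which did not pass the threshold of 0.05 (adjusted p 0.0523, exact binomial test). It passed with DESeq2 size factors (log2 ratio -0.20, adjusted p 0.0222, exact binomial test), which were estimated without a minimum of reads per gene. It also passed where only genes with 100 or more reads were tested (adjusted p 0.0352, exact binomial test), with all reads as the total and with the total without Mir206. It did not pass with library totals (adjusted p 0.124, exact binomial test), a minimum of 1 read or the count that ignores strand.

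The median size of the log2 ratio was 0.36 over the 6 Mir30 genes. It was 0.61 over the 415 genes tested, 0.52 over the 274 detected genes and 0.46 over the 65 genes whose mean reached 1000 CPM. None of the 6 Mir30 genes differed 2-fold, as 21.5% of the 274 detected genes did. For the 274 detected genes edgeR estimated a common biological coefficient of variation of 0.426. The members' own coefficients of variation, each the SD over the mean of 2 CPM values, ran from 5.21% to 28.7%. They are a different measure from edgeR's estimate. Listed markers of other cells also differed: the endothelial Mir126a had 217 CPM in replicate 1 and 42.9 CPM in replicate 2, and 4 blood markers had 101 and 183 CPM in all. Mir142 made up 93.9% of the blood markers, with 89.0 CPM in replicate 1 and 178 CPM in replicate 2, while Mir451a had the opposite order, with 11.9 and 3.65 CPM. Their part in the differences of the Mir30 genes was not tested.

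**Figure D2:**
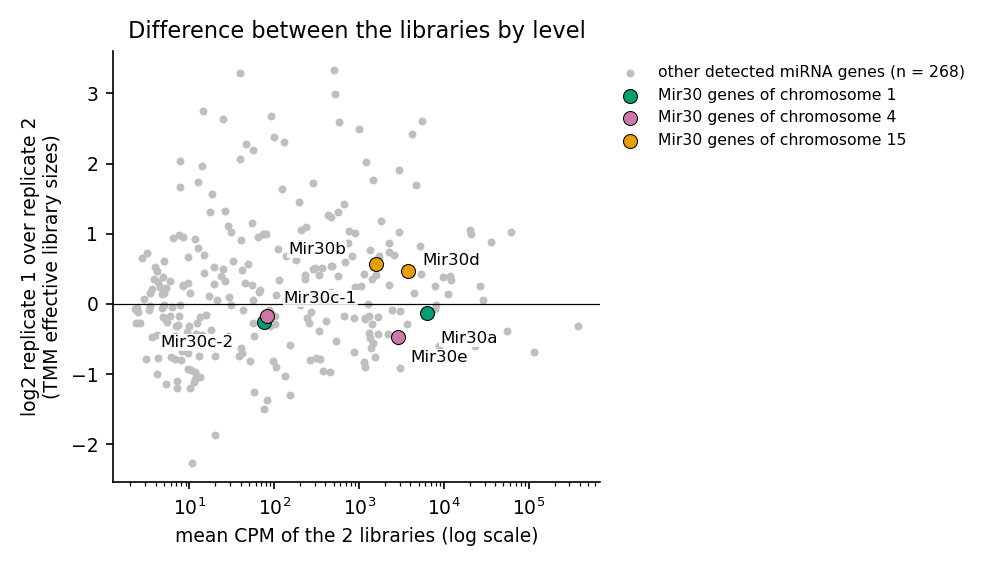
The log2 ratio of replicate 1 over replicate 2 (TMM effective library sizes) against the mean CPM on a log axis, for the 6 detected Mir30 genes, coloured by chromosome, and 268 other detected miRNA genes in grey. Mir30b and Mir30d lie above 0, and Mir30a, Mir30e and both Mir30c genes below it, all within 1 log2 unit of it.

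The clusters shifted against each other. The chromosome 1 genes Mir30a and Mir30c-2 together held 0.619% (replicate 1) and 0.667% (replicate 2) of the miRNA reads. The chromosome 4 genes took 0.249% in replicate 1 and 0.335% in replicate 2. The chromosome 15 genes took 0.626% in replicate 1 and 0.436% in replicate 2, so this cluster led the family, by a narrow margin over chromosome 1, in replicate 1 alone. On TMM effective library sizes, the opposite shifts left the family's sum nearly level, with a log2 ratio of replicate 1 over replicate 2 of 0.02. This value depends on the scaling. With the total without Mir206, for example, the log2 ratio of Mir30a moved from -0.14 to -0.28.

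Ratios between members, which do not depend on library size, show the same. Mir30d exceeded Mir30b by 1.21 in replicate 1 and 1.31 in replicate 2 (log2), or 1.26 ± 0.07 (SD, n = 2), and so by nearly the same amount in both. Mir30a exceeded Mir30c-2 by 6.44 and 6.32, or 6.38 ± 0.08, and Mir30e exceeded Mir30c-1 by 4.94 and 5.24, or 5.09 ± 0.21 (log2, SD, n = 2). Both of these ratios leave out multimapping reads. Between clusters, Mir30a exceeded Mir30d by 0.48 and 1.08, or 0.78 ± 0.42, and Mir30e by 1.35 and 1.01, or 1.18 ± 0.23 (log2, SD, n = 2). Mir30d over Mir30e was 0.86 and -0.07, or 0.40 ± 0.66 (log2, SD, n = 2).

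The 8 ratios of a chromosome 15 gene with a gene of another cluster changed between the libraries by 0.60 to 1.03 on the log2 scale. The other 7 ratios changed by 0.03 to 0.33. The 3 ratios within a cluster changed by 0.10 to 0.30 and the 12 between clusters by 0.03 to 1.03, and 3 of those 12 changed by less than the largest within a cluster. The grouping by chromosome 15 was chosen after the values were seen, and the 15 ratios share genes, so they are a description of these 2 libraries.

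**Figure D3:**
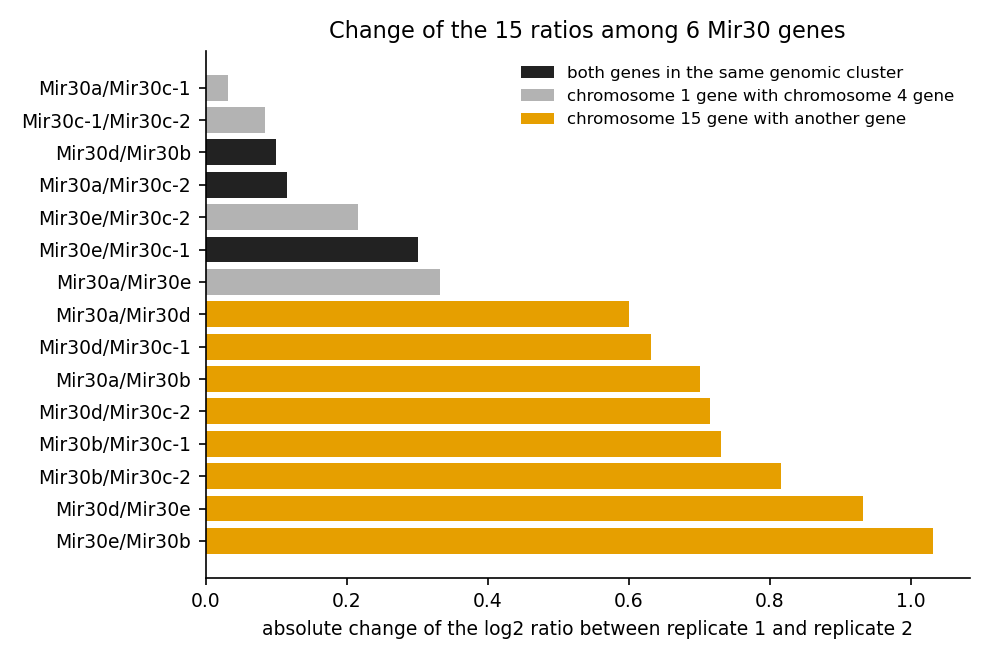
Absolute change of each of the 15 log2 ratios among the 6 detected Mir30 genes between replicate 1 and replicate 2, with black bars for pairs in the same genomic cluster, orange bars for a chromosome 15 gene with a gene elsewhere, and grey bars for a chromosome 1 gene with a chromosome 4 gene. The 8 orange bars run from 0.60 to 1.03, longer than all others, which reach 0.33.

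The family was set beside 3 other conserved families with several genes, Mir29, Mir26 and let-7. Mir29 is known for acting on collagen genes, Mir26 is hosted in introns of Ctdsp phosphatase genes, and let-7 is linked to differentiation. The Mir30 genes together had 2.33-fold the reads of the Mir29 family in replicate 1 and 3.09-fold in replicate 2, and 11.7-fold and 22.1-fold the reads of the Mir26 family. The let-7 family had 3.81-fold the reads of the Mir30 genes in replicate 1 and 3.14-fold in replicate 2. As mean log2 ratios of the Mir30 family these were 1.43 ± 0.29 to Mir29, 4.01 ± 0.64 to Mir26 and -1.79 ± 0.20 to let-7 (SD, n = 2). Each ratio had the same direction in both libraries. Multimapping reads are in no family sum. How many of them came from copies with an identical arm in any of these families was not tested.

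The make-up of the families differed. Mir29a took 96.1% of the mean CPM of its family and Mir26b took 92.6%, while Mir30a took 43.4% and Mirlet7b took 44.98%. These shares leave out multimapping reads as well. On TMM effective library sizes, the sums of the other families were higher in replicate 1 than in replicate 2. They were 1.35-fold higher for Mir29, 1.91-fold for Mir26 and 1.23-fold for let-7, where the Mir30 sum differed 1.02-fold. These folds depend on the scaling. Among members, 2 of 4 Mir29 genes, 3 of 3 Mir26 genes and 9 of 12 let-7 genes differed between the libraries by the exact binomial test. Over all genes tested, 55.7% differed, and 85.4% where only genes with 100 or more reads were tested. With so few members, nothing particular to a family is read from these counts.

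**Figure D4:**
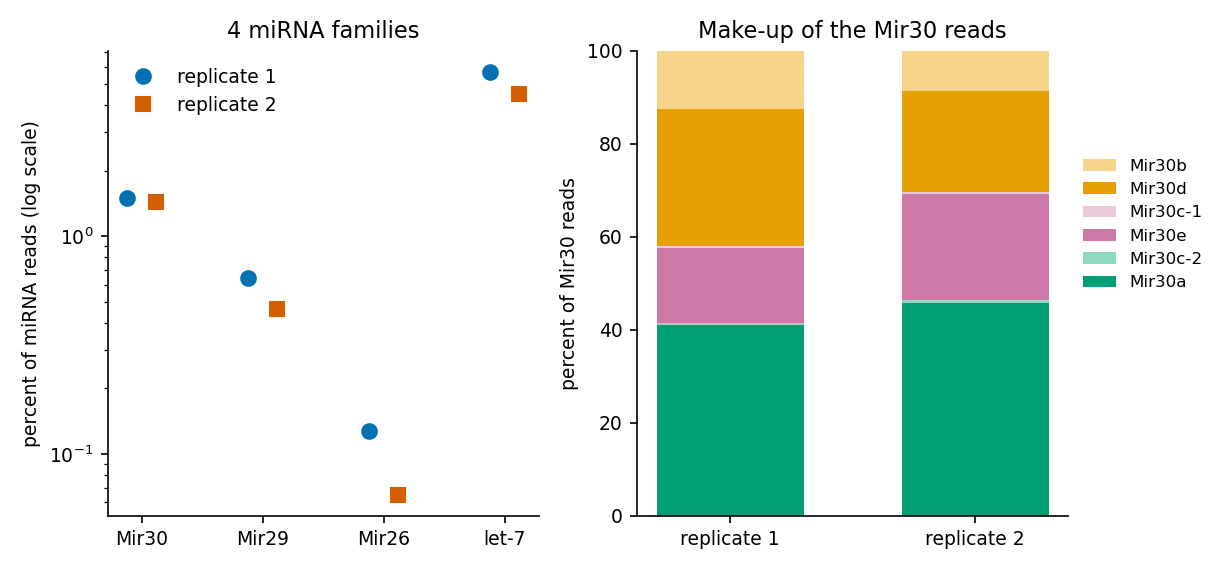
Left, percent of miRNA reads taken by the Mir30, Mir29, Mir26 and let-7 families in replicate 1 (circles) and replicate 2 (squares), on a log axis. Right, share of the Mir30 reads taken by each gene in each library, where Mir30a at the base takes 41.0% in replicate 1 and 45.8% in replicate 2 and the chromosome 15 genes at the top take less in replicate 2.

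Genes that share an identical mature arm with a copy were compared with other genes of their family. The Mir30c genes had at most 78.2 CPM in replicate 1 and 86.1 CPM in replicate 2, while the lowest of the other detected Mir30 genes had 1886 and 1249 CPM. The Mir29b genes had at most 8.05 and 10.4 CPM, against 258 and 140 CPM or more for Mir29c and Mir29a. The Mir26a genes had at most 73.9 and 62.8 CPM, against 1198 and 584 CPM for Mir26b. The let-7c and let-7f genes had at most 436 and 129 CPM, against at least 989 and 160.1 CPM for Mirlet7b, Mirlet7d, Mirlet7e, Mirlet7g, Mirlet7i and Mir98. The sequence table showed the shared arm for each of these pairs. The let-7a genes were listed as copies with an identical main arm, but the sequence table did not show an arm shared between them. The table is incomplete, so this does not show that their arms differ. For this reason they are given apart. Mirlet7a-2, with 11.1 CPM (replicate 1) and 13.2 CPM (replicate 2), had the lowest mean of the let-7 family and shared no arm in the table. Mirlet7a-1, with 16.0 and 20.2 CPM, shared an arm with Mirlet7c-2 only.

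Beside other miRNAs reported in myoblast differentiation, Mir30a, Mir30d, Mir30e and Mir30b stood in the upper part, the Mir30c genes lower, and Mir30f, with no read, below 36 of the 37 listed genes. Of the 37 listed genes, 31 were detected, Mir489 had no read, and 6 had a higher mean than Mir30a: Mir206, Mir378a, Mir322, Mir133b, Mir351 and Mir27b. Mir30d stood below 9 of the 37, Mir30e below 12, Mir30b below 13, and each Mir30c gene below 24. These ranks leave out multimapping reads, and how many of those came from listed genes was not tested. Of the 35 listed genes tested, 28 differed between the libraries, 19 higher in replicate 1 and 9 higher in replicate 2. Over all genes tested, 55.7% differed (30.4% with more in replicate 1, 25.3% with more in replicate 2). That background holds genes with few reads. Where only genes with 100 or more reads were tested, 85.4% of 240 differed, so nothing particular to the list is read from its count. The median size of the log2 ratio of the 35 listed genes was 0.53.

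Genes with the most similar values were sought by distance in log2(CPM + 1) over the 2 libraries. Mir214, which is transcribed from the strand opposite a Dnm3 intron, was nearest to Mir30e, at a distance of 0.04, with 2359 CPM in replicate 1 and 3329 CPM in replicate 2. Mir151 was nearest to Mir30b, at 0.10, with 1805 and 1323 CPM, followed by Mir106b and Mir484. Mir149 was nearest to Mir30a, at 0.44, followed by Mir100 and Mir27b. Mir188 was nearest to Mir30d, at 0.43, followed by Mir182 and Mir191. Mir450-2 was nearest to Mir30c-1, at 0.10, and Mirlet7c-1 to Mir30c-2, at 0.06. With 2 libraries this likeness says little more than that the levels were alike.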

How the data were processed

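Small RNA was sequenced from 2 replicates of 72 h C2C12 myotubes. The deposited values are raw counts of reads by miRNA gene, for which the authors used mm10 and GENCODE M21 (stated in a text beside the tables). Which aligner, counter, trimming and filters were used is not given in the sources used here. Every table has count columns that ignore strand, take the gene's own strand (used here) or take the opposite strand. The strand of the columns was read from the values. Lines without a gene entered no total and no test: multimapping reads were 22.0% and 17.9%, unmapped reads 22.7% and 23.1%, and no-feature reads 5.88% and 5.57% of all reads in replicates 1 and 2.

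Identifiers were matched to GENCODE M21 names. CPM used the own-strand gene reads as the total. Since the series has 1 group, no quasi-likelihood fit was made. An exact binomial test (two-sided) of each gene compared the libraries, on TMM effective library sizes (edgeR 4.0.16, R 4.3.3), and p-values were adjusted (Benjamini-Hochberg) across all genes that had at least 10 reads in both libraries together. The test was checked on simulated counts that held counting error only, so the check does not cover spread between replicates. Fold changes and log2 ratios between the libraries and between genes add 0.5 reads. The members and lists were chosen with earlier results of these data known. Named genes were the members, the 3 nearest genes of each detected member, the leading gene of each compared family, listed markers, genes with the family's seed and host genes. Other listed genes were named after their values were seen. Alternatives were other columns, totals, minimums, pseudocounts, DESeq2 1.42.0 size factors, and each library left out. Tests used Python 3.11.15 with scipy 1.17.1.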

Additional observations from a re-analysis of the deposited data

Results flagged for a closer look

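Outlying samples and differences between groups were not looked for, as the series has 1 group of 2 libraries. Reads outside the own-strand gene counts stood above the limit of 3 reads that a count of 0 allows. At Mir30f the opposite-strand column held 18255 reads in replicate 1 and 32181 in replicate 2, the same numbers as the own-strand column held at Mir30e. Multimapping reads, which are in no gene count, numbered 3378438 in replicate 1 and 3295854 in replicate 2.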

How the results depend on the processing

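No paired analysis was possible because the series has 1 group. The family's share of 1.47% was 1.35% in the count that ignores strand, where Mir30e is listed at 0, 0.753% of all reads, and 2.37% of miRNA reads without Mir206. It was 1.44% to 1.49% with a library left out. In the count that ignores strand, Mir30e over Mir30c-1 turned to -10.5 on the log2 scale, Mir30d over Mir30e became 16.0 and Mir30a over Mir30e 16.7, because Mir30e has no count there. The log2 ratios of the Mir30 family to the Mir29 and let-7 families became 1.11 and -2.07. Mir30d over Mir30e ran from -0.07 to 0.86 with a library left out, and was -0.0701 without replicate 1. Mir30f has no read, so the pseudocount set the log2 ratio of Mir30e over Mir30f, at 17.9 with 0.1 reads and 14.6 with 1 read (15.6 with 0.5), and this ratio had no value in the count that ignores strand.

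The log2 ratios of the 6 genes between the libraries kept their sign under every scaling tried. Whether the ratio of the family's sum kept its sign with the total without Mir206 was not tested. Of these genes, 6 differed with DESeq2 size factors, with all reads as the total, with the total without Mir206 and with a minimum of 100 reads, 5 with library totals or with a minimum of 1 read, and 4 of 5 in the count that ignores strand. The total without Mir206 moved the median log2 ratio of all genes to -0.13, against 0.02. The 6 genes were detected at 1 CPM and at 5 CPM as well. Over all genes tested, 31.2% differed with a minimum of 1 read (221 of 708) and 85.4% with a minimum of 100 reads (205 of 240). Under the other alternatives this share was 54.3% (count that ignores strand) to 57.7% (total without Mir206), against 55.7%. Among the members, the Mir30c genes and Mir30f had the fewest reads, so depth limits them most. Multimapping reads entered no gene count under any of these alternatives.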
